A study of Anoectochilus roxburghii with 9 samples.

Results

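Leaves overexpressing ArPHR4 were compared directly with leaves overexpressing ArPHR2 in Anoectochilus roxburghii, a medicinal orchid. The 6 overexpression libraries of the series, out of 9, were taken by their titles, 3 for each factor. Of 85512 assembled genes, the 27275 that passed an expression filter were compared. All leaves were labelled WT, had received the transient overexpression treatment and were taken at day 3. The remaining 3 libraries came from leaves given an empty vector (EV) and are used here for levels beside the comparison. A deposited table of names lists the constructs as ArPHR2-YFP and ArPHR4-YFP, after a yellow fluorescent protein, and it is not stated whether the proteins were fused to it. No label gives the promoter of the constructs, the share of leaf cells that received them, or the number of plants behind the 3 libraries of each factor. The p-values therefore refer to the variation among these libraries, and this variation may be technical.

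PHR proteins are MYB-type transcription factors with a coiled-coil domain. In Arabidopsis and rice they bind a short element, named P1BS, in the promoters of genes of the phosphate starvation response, and SPX proteins hold them back when phosphate is plentiful. In rice, PHR2 is also known to promote the symbiosis with arbuscular mycorrhizal fungi. The design of the series places both orchid factors beside the same empty vector, so the leaves under one factor can be read against the leaves under the other. The deposited tables used here pair no gene ID with a name, a function, a sequence or a genome position. Genes are therefore described by ID, level and size of difference, the transcripts of the constructs could not be checked, and neither the labels nor the leaf tissue were checked against marker genes. In such bulk leaf samples, fewer cells of a type and less RNA per cell cannot be told apart.

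The 6 libraries held 16032716 to 17244083 counts. Between any ArPHR2 and any ArPHR4 library, 11.2% to 11.8% of the counts would have to be moved to other genes to make the profiles equal. Between libraries of the same factor that share was 3.16% to 3.90% for ArPHR2 and 2.94% to 3.54% for ArPHR4. It was 16.0% to 16.3% between EV and ArPHR2 libraries and 19.2% to 19.9% between EV and ArPHR4 libraries. The 2 factors' leaves were thus nearer to each other than either was to EV on this measure, and all 9 pairs across the factors lay above all 6 pairs within them. The common biological coefficient of variation was 9.62% over the ArPHR2 libraries and 8.23% over the ArPHR4 libraries. On the line through the mean log2 profiles of the 2 groups, with ArPHR2 at 0 and ArPHR4 at 1, the EV libraries lay at 0.280 to 0.297, on the ArPHR2 side of the middle. When each overexpression library was placed on the line drawn without it, the ArPHR2 libraries lay at 0.122 to 0.144 and the ArPHR4 libraries at 0.853 to 0.869.

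A few genes were carried by 1 library. A level of at least 10 CPM (counts per 1000000 counts) in 1 library and at least 5 times the level of every other library of the 9 was seen for 9 genes in the ArPHR2 library numbered 3, for 3 genes in the ArPHR4 library numbered 3 and for 3 genes in the EV library numbered 3. No other library had such a gene. The most abundant of them was at 438 CPM in the ArPHR2 library numbered 3, at 6.09 and 13.9 CPM in the other ArPHR2 libraries and at 9.40 to 15.6 CPM in the ArPHR4 libraries. All 9 genes of that ArPHR2 library were called lower in ArPHR4, and all 3 genes of the ArPHR4 library were called higher. None of these 12 calls was made by a fit that allows for genes of outlying spread, or without the library concerned. The counts of calls given here include these 12 genes, 7 of which were at least 8-fold lower and 3 at least 8-fold higher.

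ArPHR4 leaves had 4446 genes higher and 4418 genes lower than ArPHR2 leaves, 16.3% and 16.2% of the genes tested. Together this was 32.5% of the tested genes (edgeR quasi-likelihood test, adjusted p under 0.05). With limma on log2(FPKM + 1) 3869 genes were higher and 2554 lower, so the even split of the calls depended on the scale. Most of these differences were small. Of the called genes, 4873 (55.0%) differed by under 1.5-fold, 1656 by 1.5-fold to 2-fold, 1553 by 2-fold to 4-fold, 405 by 4-fold to 8-fold and 377 by 8-fold or more. The median size of a called difference was 0.52 on the log2 scale. At 2-fold or more, 1063 genes were higher (3.9% of those tested) and 1272 were lower (4.66%), together 8.56%. This lean to lower genes turned with limma on log2(FPKM + 1), with 762 higher and 640 lower, and on log2(FPKM + 0.1), with 994 and 912. It also turned with implied length, the ratio of count to FPKM, as an offset in edgeR, with 1032 and 1004. At 4-fold or more the called share of tested genes was 2.87%. A test of the size itself placed 1690 genes (6.2%) beyond 1.5-fold, 811 of them higher (2.97%) and 879 lower (3.22%; edgeR glmTreat, adjusted p under 0.05). The ArPHR2 and ArPHR4 libraries did not overlap in 42.1% of the tested genes, with 5786 genes higher (21.2%) and 5698 lower (20.9%). For a single gene, complete separation of 3 against 3 libraries has p = 0.1 in an exact two-sided permutation test. Some genes without a difference would therefore also show it. Among the called genes, 94.4% had no overlap, a share drawn from the same values as the calls.

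**Figure D1:**
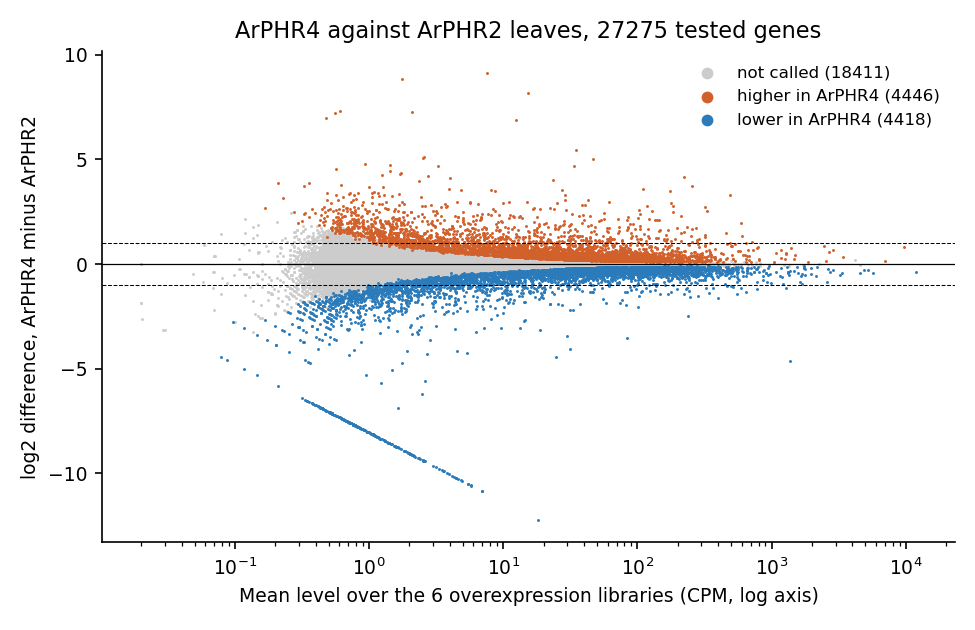
Each point is 1 of 27275 tested genes. The horizontal axis gives its mean level over the 6 overexpression libraries in CPM on a log axis, and the vertical axis its fitted log2 difference, ArPHR4 minus ArPHR2. Coloured points were called by edgeR at an adjusted p under 0.05, and dashed lines mark 2-fold. The straight line of points at the lower left holds genes with 0 counts in every ArPHR4 library, whose fitted difference depends on the prior count; no line of like density lies at the upper left.

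Many genes without a call could be bounded. The 95% interval of the log2 difference lay inside 2-fold for 16073 genes (58.9%) and inside 1.5-fold for 10833 (39.7%). Of the 18411 uncalled genes, 10614 (57.7%) had an interval inside 2-fold, and their median level was 14.2 CPM. For the other 7797 uncalled genes a difference of 2-fold was not excluded by the interval, and their median level was 0.800 CPM. On the other side, 3506 called genes had an interval inside 1.5-fold, so their difference was measured and was small.

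The direction of the differences turned with the level of the gene. Tested genes were divided by their mean CPM over the 6 libraries. At 100 CPM or more, 559 genes were higher and 909 were lower in ArPHR4, 70.4% of the 2085 genes of that class, against 32.5% of all tested genes. At 10 to 100 CPM, 2467 were higher and 1799 lower (43.6% called). At 1 to 10 CPM the split was 1222 higher against 1208 lower (25.5% called). Under 1 CPM, 198 were higher and 502 lower (11.9% called). The order of higher and lower calls at 10 to 100 CPM turned with upper-quartile scaling, which gave 1954 higher and 2261 lower, and limma on log2(FPKM + 1) gave 2124 and 893. At 1 to 10 CPM upper-quartile scaling gave 1088 and 1355. At 100 CPM or more lower calls led in all 17 alternative settings, though with limma on log2(FPKM + 1) only by 617 against 576, and under 1 CPM they led in all 17, with limma by 393 against 245.

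The large differences had the opposite lean in the classes of high mean level. At 4-fold or more, 20 genes of 100 CPM or more were higher in ArPHR4 and 3 were lower. At 10 to 100 CPM, 44 were higher and 12 lower. In the less abundant classes lower genes led instead, with 184 against 125 at 1 to 10 CPM and 300 against 94 under 1 CPM. These 4 directions were the same in all 17 alternative settings. In the most abundant class the higher genes then numbered 20 to 21 and the lower genes 2 to 3. At 10 to 100 CPM the higher genes numbered 41 to 47 and the lower genes 5 to 18. Some of the 12 lower genes of that class were carried by the ArPHR2 library numbered 3. Without that library 7 were lower, and 5 in the fit that allows for genes of outlying spread. In the low classes the sizes moved more, with 57 lower against 23 higher under 1 CPM and 89 against 61 at 1 to 10 CPM with limma on log2(FPKM + 1), and 109 against 27 under 1 CPM with a filter of 1 CPM in 3 libraries. At a mean of 100 CPM or more over the 6 libraries, more genes were thus called lower than higher in ArPHR4. The median size of a called difference there was 0.297 on the log2 scale. The median log2 difference of that class depended on the scaling, at -0.065, -0.112 with upper-quartile scaling and -0.0012 with limma on log2(FPKM + 1). At 4-fold or more the higher genes led, but a gene can enter a class of high mean through its ArPHR4 libraries. The 28 genes of at least 50 CPM and at least 4-fold higher had medians of 34.6 CPM in ArPHR2 and 213 CPM in ArPHR4.

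**Figure D2:**
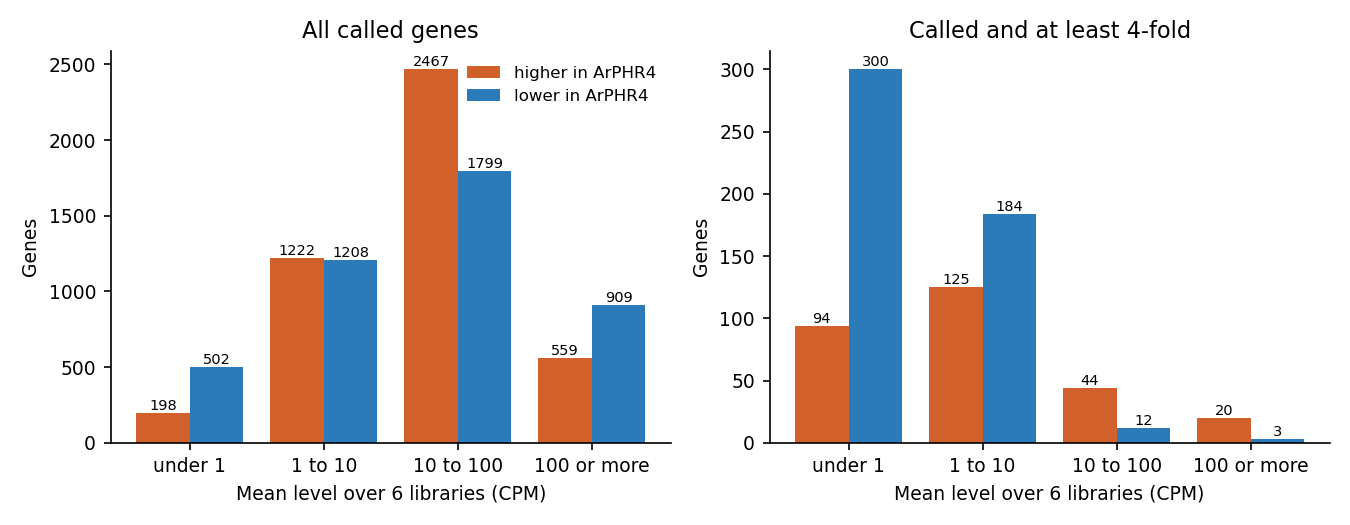
Bars give the number of genes called higher (orange) or lower (blue) in ArPHR4 than in ArPHR2, in 4 classes of mean CPM over the 6 overexpression libraries. All called genes are on the left and those of at least 4-fold on the right; at 100 CPM or more the calls were 559 higher and 909 lower, but 20 higher and 3 lower at 4-fold.

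The genes of high mean level with large differences formed 2 groups of unequal size. Among the 4734 tested genes with at least 50 CPM over the 6 libraries, 2860 were called, 112 of them at least 2-fold higher and 47 at least 2-fold lower. The 28 genes that were at least 4-fold higher in ArPHR4 had a median level of 213 CPM there, 34.6 CPM in ArPHR2 and 14.1 CPM in EV. Summed, they took 7332 to 7446 CPM in each ArPHR4 library and 1107 to 1177 CPM in each ArPHR2 library. Only 4 genes were at least 4-fold lower, and 1 of these was the gene carried by the ArPHR2 library numbered 3 at 438 CPM. The 47 genes at least 2-fold lower had medians of 80.8 CPM in ArPHR4, 216 CPM in ArPHR2 and 284 CPM in EV. The 112 genes at least 2-fold higher had medians of 164 CPM in ArPHR4, 48.1 CPM in ArPHR2 and 38.0 CPM in EV. At 2-fold the median in EV was thus below both factors for the higher genes and above both for the lower genes. For the 4 genes at least 4-fold lower the median in EV lay between, with 121 CPM in EV, 283 CPM in ArPHR2 and 55.8 CPM in ArPHR4. This did not hold for the gene carried by 1 library. Its EV libraries, at 4.99 to 8.58 CPM, were below its ArPHR4 libraries, at 9.40 to 15.6 CPM. These sets were chosen by the difference itself, so their levels in the 2 factors are descriptions.

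The gene with the largest increase among the genes of at least 50 CPM whose libraries did not overlap was TRINITY_DN3379_c0_g1. It was at 411, 423 and 427 CPM in the ArPHR4 libraries and at 19.7, 23.2 and 27.8 CPM in the ArPHR2 libraries. Every ArPHR4 library was far above every ArPHR2 library, and EV was lower still at 4.62 ± 0.588 CPM (SD, n = 3). The log2 difference was 4.16 ± 0.068 (SE; 17.9-fold; edgeR adjusted p = 2.61e-30). It ranked 8234 by CPM in ArPHR2 leaves and 204 in ArPHR4 leaves.

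TRINITY_DN8213_c0_g1 had a like pattern. Its ArPHR4 libraries were at 465, 479 and 483 CPM and its ArPHR2 libraries at 34.6, 36.8 and 35.4 CPM, with EV at 5.31 ± 0.174 CPM (SD, n = 3). The libraries of each group lay close together, while the lack of overlap was a condition of the choice. The log2 difference was 3.74 ± 0.047 (SE; 13.4-fold; edgeR adjusted p = 3.19e-33).

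Among the genes of at least 50 CPM whose libraries did not overlap, TRINITY_DN3378_c0_g1 had the largest decrease, and it was one of the most abundant genes of ArPHR2 leaves, where it ranked 17 by CPM. It was at 2660, 2637 and 2677 CPM in the ArPHR2 libraries and at 116, 104 and 106 CPM in the ArPHR4 libraries. EV lay between them at 1067 ± 13.6 CPM (SD, n = 3), so this transcript was above EV in every ArPHR2 library and below it in every ArPHR4 library. The log2 difference between the factors was -4.61 ± 0.043 (SE; 24.5-fold lower in ArPHR4; edgeR adjusted p = 4.71e-37), and its rank in ArPHR4 leaves was 1823. On the FPKM scale its levels were 2409 ± 16.3 in ArPHR2 and 131 ± 10.1 in ArPHR4 (SD, n = 3).

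TRINITY_DN11972_c0_g1 had the next largest decrease among these genes. It was at 393, 404 and 406 CPM in ArPHR2 and at 71.6, 70.3 and 74.5 CPM in ArPHR4, on either side of EV at 150 ± 3.69 CPM (SD, n = 3). The log2 difference was -2.47 ± 0.043 (SE; 5.56-fold lower in ArPHR4; edgeR adjusted p = 1.9e-29). None of these 4 IDs shared its assembly component with another gene, and each call held in the 17 alternative settings.

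**Figure D3:**
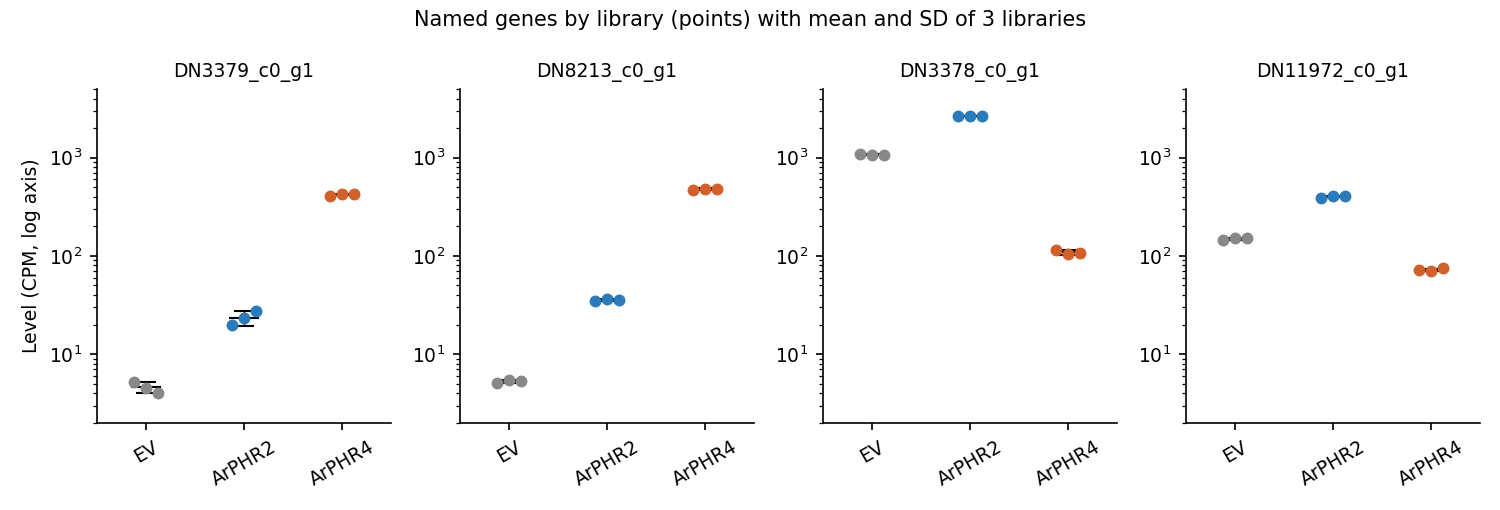
Level of the 4 named genes in every library (points; CPM, log axis), with the mean and SD of the 3 libraries of each group in black. The first and second genes rise from EV over ArPHR2 to ArPHR4, while the other two are highest in ArPHR2 and lowest in ArPHR4, with EV between.

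The genes ranked 3 to 10 among the increases had log2 differences of 2.74 to 3.56. The fifth of the list was at 859.7 to 908 CPM in ArPHR4 and 86.5 to 91.7 CPM in ArPHR2, below its EV level of 145 ± 4.2 CPM (SD, n = 3), a log2 difference of 3.31 ± 0.042 (SE; edgeR adjusted p = 3.66e-33). The gene of rank 10 was at 555 ± 11.5 CPM in ArPHR4, while ArPHR2 at 83.3 ± 4.37 CPM and EV at 87.3 CPM were near each other (SD, n = 3). The increases of this list therefore began from ArPHR2 levels above, near and below EV.

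The genes ranked 3 to 10 among the decreases had log2 differences of -2.06 to -1.58, smaller than the increases of the same ranks. The genes of ranks 5 and 6 were highest in EV, at 489 and 419 CPM, lower in ArPHR2 at 91.6 ± 8.26 and 117 ± 3.41 CPM, and lowest in ArPHR4 at 24.8 ± 1.72 and 32.6 ± 2.31 CPM (SD, n = 3). The gene of rank 7 had the lowest EV level of the list, 20.2 CPM, with 118 ± 4.22 CPM in ArPHR2 and 35.4 ± 2.53 CPM in ArPHR4 (SD, n = 3). The log2 difference was -1.88 ± 0.061, -1.85 ± 0.051 and -1.73 ± 0.064 (SE) at these 3 ranks, and edgeR called each.

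Levels were compared between genes on the FPKM scale, which accounts for transcript length. The transcript with the highest FPKM in both groups was at 15328 to 16272 FPKM in ArPHR2 and 28873 to 29892 FPKM in ArPHR4, and in EV at 7346 to 7942 FPKM. The transcript of rank 2 was at 6518 to 6892 FPKM in ArPHR2, 12948 to 13837 FPKM in ArPHR4 and 710 to 761 FPKM in EV. The libraries of the factors did not overlap in either gene, and the count fit gave log2 differences of 0.81 ± 0.035 and 0.86 ± 0.042 (SE; edgeR adjusted p = 1.01e-18 and 2.32e-17). The transcript of rank 3, highest in EV at 21426 to 22925 FPKM, was at 12250 to 13013 FPKM in ArPHR2 and 8988 to 9798 FPKM in ArPHR4 (log2 difference of counts -0.42 ± 0.041, SE; edgeR adjusted p = 4.64e-10).

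Some of the leading transcripts depended on the scale. The transcript of rank 5 was at 7271 to 8021 FPKM in ArPHR2 and 8214 to 8521 FPKM in ArPHR4, so its FPKM libraries did not overlap, while its counts gave a log2 difference of 0.017 ± 0.036 (SE; edgeR adjusted p = 0.761). The transcript of rank 4 had the opposite pattern. Its counts were lower in ArPHR4, with a log2 difference of -0.25 ± 0.039 (SE; edgeR adjusted p = 3.84e-06), from 833 ± 23.3 to 698 ± 28.4 CPM (SD, n = 3). Its FPKM libraries overlapped, at 9103 to 10278 in ArPHR2 and 8992 to 11008 in ArPHR4. In ArPHR2 its mean of 833 CPM stood at 9504 FPKM, against 5189 CPM at 12587 FPKM for the transcript of rank 3. The implied length of the rank 4 transcript was thus short, and its place among the leading transcripts by FPKM rests on that length.

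The difference between the factors was spread over many genes. Summed over genes, ArPHR4 leaves gained 96054 CPM and lost 116565 CPM against ArPHR2 leaves. CPM is relative to TMM-scaled library sizes, so these 2 sums need not be equal. The TMM factors were 0.994 to 1.018 in the ArPHR2 libraries and 1.027 to 1.035 in the ArPHR4 libraries. The excess of loss over gain is therefore no measure of a net loss of transcripts. Called genes held 87.6% of the gain and 91.0% of the loss. The 10 genes with the largest gain held 13.8% of it and the 10 with the largest loss 13.1%, and 283 and 227 genes were needed for 50% of each. The transcript of highest FPKM alone gave 5.5% of the gain. TRINITY_DN3378_c0_g1 gave the second largest loss. The other genes among the 10 largest losses differed by less than 2-fold, with log2 differences of -0.97 to -0.28.

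Fewer genes were detected in each ArPHR4 library than in any ArPHR2 library, and the counts were divided more evenly among genes, but 3 against 3 libraries cannot reach a p under 0.05 for such single values. At an equal depth of 16032716 counts, 49995 to 50749 genes had at least 1 count in an ArPHR2 library and 46102 to 46685 in an ArPHR4 library, with EV between at 47835 to 48792. With at least 3 counts the means were 39068 ± 783 and 37108 ± 223 genes, and with at least 10 counts 25694 ± 431 and 25184 ± 249 genes in ArPHR2 and ArPHR4 (SD, n = 3). At these limits EV was the lowest group, with 36403 ± 347 and 24486 ± 289 genes. The groups did not overlap at 1 or 3 counts and overlapped at 10. The effective number of genes, the exponential of the Shannon entropy of the counts, was 5933 ± 125 in ArPHR2 and 6282 ± 36.8 in ArPHR4 (SD, n = 3), and 5500 ± 54.5 in EV. The 100 most abundant genes held 19.6% ± 0.383 of the counts in ArPHR2 and 18.3% ± 0.0767 in ArPHR4 (SD, n = 3). The exact two-sided permutation test gave p = 0.1 for the genes detected, for the effective number and for the share of the top 100 genes, the smallest value that 3 against 3 libraries allow, and 0.167 after Benjamini-Hochberg adjustment over 5 such measures. For the genes with at least 10 counts p was 0.2, and for the share of counts outside the tested genes, which was 0.527% in ArPHR2 and 0.490% in ArPHR4, it was 0.3 (exact permutation tests).

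**Figure D4:**
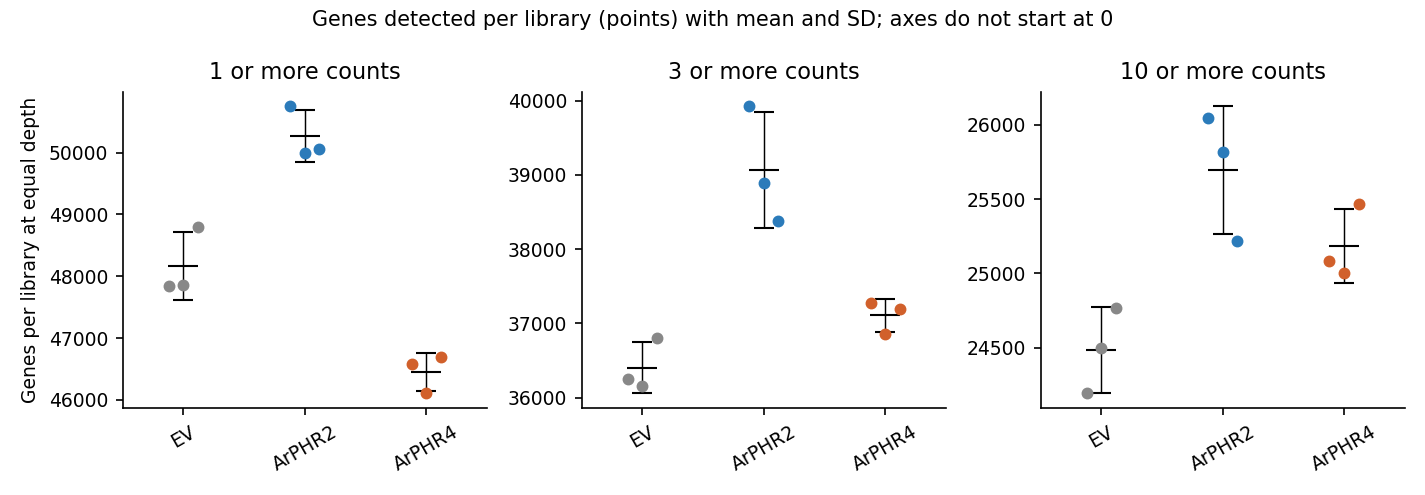
Genes detected per library at an equal depth of 16032716 counts, with at least 1, 3 or 10 counts, in EV, ArPHR2 and ArPHR4 leaves. Points are libraries and bars give the mean and SD of 3; the vertical axes do not start at 0. ArPHR2 and ArPHR4 libraries are apart at 1 and 3 counts and overlap at 10.

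Transcripts seen under one factor and not under the other were nearly all on the ArPHR2 side. Genes with at least 10 counts in every library of one group and no more than 3 counts in the other group as a whole numbered 255 for ArPHR2 and 11 for ArPHR4. These were 1.12% of the 22701 genes with at least 10 counts in every ArPHR2 library, and 0.0499% of the 22065 such genes in ArPHR4. The 11 became 28, 21 or 25 genes without the ArPHR2 library numbered 1, 2 or 3, and 19, 15 or 18 without the ArPHR4 library numbered 1, 2 or 3. Of the 255 genes, 246 had no count at all in ArPHR4. Per 1000000 counts they summed to 679 to 690 in each ArPHR2 library, 23.7 to 27.3 in each EV library and 0.241 to 0.499 in each ArPHR4 library. The 3 ArPHR2 libraries were close to each other in this sum and far above the rest. The rule chose these genes by their values in the factors, so their levels there are a description.

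The EV libraries took no part in that choice. Of the 255 genes, 136 had no count in EV, 37 had 1 to 3 counts and 82 had more, of which 6 had at least 10 counts in every EV library. The EV counts of the set came to 3.60% of its ArPHR2 counts. The 11 genes of the ArPHR4 side had 5 members with no count in EV and 4 with more than 3. Many of the 255 genes were of low level. The lowest ArPHR2 library had under 20 counts in 112 of them and 20 to under 50 in 93. It had 50 to under 100 counts in 31 and 100 or more in 19. Their median implied length, from count and FPKM, was 648 bases, against 924 bases for all tested genes.

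The rule that chose these genes also gives them large differences. All 239 tested genes of the ArPHR2 side were among the 312 genes at least 8-fold lower in ArPHR4, and all 9 of the ArPHR4 side were among the 65 at least 8-fold higher. Leaving both sets out lowers the counts of lower calls by construction, and under 1 CPM 192 higher and 367 lower calls were then counted.

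**Figure D5:**
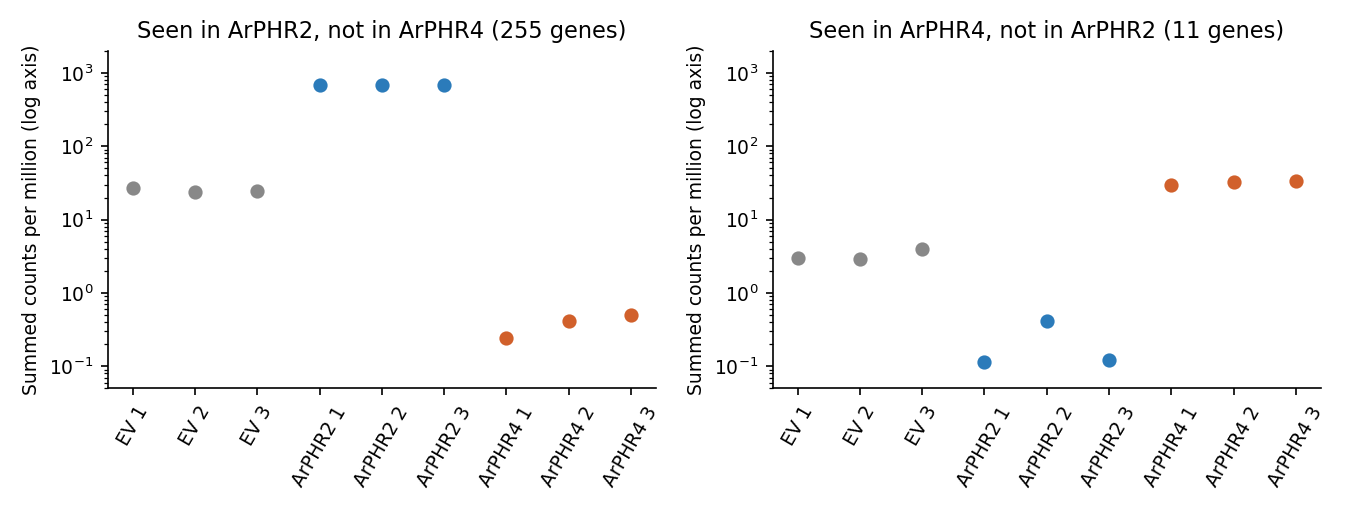
Summed counts per 1000000 counts (log axis) of the 255 genes seen in ArPHR2 and not in ArPHR4 (left) and of the 11 genes seen in ArPHR4 and not in ArPHR2 (right), in each of the 9 libraries. The ArPHR2 libraries reach 679 to 690 on the left, and the ArPHR4 libraries 29.7 to 33.6 on the right; EV lies between in both panels.

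Genes of 1 assembly component can share reads or be pieces or variants of one transcript. When counts were summed over components, 8159 of 24627 components were called (33.1%), 4104 higher and 4055 lower. Of 2801 components with at least 2 tested genes, 413 had at least 2 called genes. Among these 413, 167 (40.4%) had genes called in opposite directions and 246 in one direction. The summed counts of 71 of the 167 were not called. Since higher and lower calls were near even in number, unrelated called genes would often be opposite too. In 10 components genes differed by at least 2-fold in each direction. In one of these 10, 1 gene went from 113 ± 5.27 CPM in ArPHR2 to 242 ± 12.4 CPM in ArPHR4 and another from 10.7 ± 1.24 to 4.26 ± 1.05 CPM (SD, n = 3; log2 differences 1.10 ± 0.047 and -1.33 ± 0.154, SE). In EV the first was at 65.7 CPM and the second at 25.9 CPM. Whether such pairs reflect a change between variants of a gene or the division of reads between them was not tested.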

How the data were processed

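RNA of 9 leaf libraries was measured by messenger RNA sequencing, with libraries made with a SMARTER kit per the labels' protocols. The counts per assembled gene and the FPKM values (fragments scaled by transcript length and library size) were used as deposited by the authors. The IDs have the form of the Trinity assembler; no source used here names the read length, strand setting, aligner or counter. The ratio of count to FPKM, an implied length, differed between the overexpression libraries, each divided by its median: over the 12585 tested genes with at least 100 counts in all 6, the highest was 1.07 times the lowest at the median and 1.30 times at the 90th percentile. The counts may therefore be rounded estimates that divide reads among transcripts, and with this length as an offset edgeR called 3818 genes higher and 3090 lower. With no strand setting named, reads of a transcript and its antisense or overlapping partner cannot be separated.

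Groups were taken from the titles. The test was that of edgeR 4.0.16 under R 4.3.3 (filterByExpr by group, TMM scaling, 1 quasi-likelihood model of 3 group means over all 9 libraries, 6 residual degrees of freedom, contrast ArPHR4 minus ArPHR2, Benjamini-Hochberg adjustment over the 27275 tested genes). CPM is relative to TMM-scaled library sizes. A standard error is the size of the log2 difference divided by the root of F, and an interval is that error times the t quantile. Summed counts per 1000000 of the sets seen under 1 factor are relative to library totals. Single values per library were compared by exact permutation with scipy 1.17.1. Intervals cover the spread between libraries, and absence of a count covers counting error only. No 2 libraries of a factor agreed within sampling noise: their squared differences were 2.75 to 2.99 times those of counting noise.

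The IDs named were the 2 largest increases and the 2 largest decreases among called genes with at least 50 CPM over the 6 libraries and no overlap; ranked genes follow the same list, the highest FPKM or the largest gain and loss. The members, lists and tests were chosen with earlier results of these data known. The level classes, the genes carried by 1 library, the position along the line between groups and the fit allowing for outlying spread were added after the values were seen. Alternatives were DESeq2 1.42.0, limma 3.58.1 on log2(FPKM + 1) and log2(FPKM + 0.1), other scalings and filters, the 6 libraries alone, implied length as an offset, a replicate block and leaving out each library. No gene list or marker list was applied, since no names were paired with the IDs.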

Additional observations from a re-analysis of the deposited data

How the results depend on the processing

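The counts of genes higher and lower in ArPHR4, with and without the 2-fold limit, stayed within 1.5 times the reported counts under DESeq2, 2 other scalings, 2 other filters, the 6 libraries alone, implied length as an offset, the fit allowing for outlying spread and the restriction to libraries that do not overlap (the last 2 chosen after seeing the data). The exceptions were in limma, with 2554 genes lower on log2(FPKM + 1), 640 of them by at least 2-fold, and 2516 lower on log2(FPKM + 0.1); the cause was not tested. The share of higher genes among the calls was 50.2%, and 41.4% with upper-quartile scaling, 55.3% with library totals and 60.2% with limma on log2(FPKM + 1). Leaving out 1 library gave 3561 to 3977 genes higher and 4019 to 4327 lower. The counts beyond 1.5-fold and the counts of intervals inside 2-fold also stayed within 1.5 times under the edgeR alternatives. The 4 named IDs kept their direction and call throughout. The genes seen in ArPHR2 and not in ArPHR4 numbered 490 with a minimum of 5 counts and 143 with a minimum of 20, and those of the ArPHR4 side 59 and 4. Without 1 library the numbers were 273 to 304 and 15 to 28; with fewer libraries the rule is easier to meet. The difference in genes detected, -3815 at 1 count, was -1960 at 3 counts.

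Libraries share their numbers across the groups, but nothing in the labels ties them together. The deviations of same-numbered ArPHR2 and ArPHR4 libraries correlated with r of 0.101, 0.0989 and 0.215 over the more abundant 50% of genes. Of the pairs with different numbers, ArPHR2 library 1 with ArPHR4 library 2 was positive (0.150). All other such pairs were negative, at -0.205 to -0.0389. The genes carried by 1 library were all in libraries numbered 3, with 3 in EV, 9 in ArPHR2 and 3 in ArPHR4. Whether same-numbered libraries shared a step of handling was not tested. With the replicate block 4410 genes were higher and 4369 lower. Genes under 1 CPM are limited by depth: 1.18% of them had an interval inside 2-fold, against 94.9% at 10 to 100 CPM.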
